A study of Mus musculus with 36 samples.

Results

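The immunoglobulin probe sets of the array are those whose every gene symbol in the platform annotation begins with Igh, Igk or Igl, leaving out Ighmbp2. They numbered 60 of 45101 probe sets, of which 23 carried heavy-chain symbols, 33 light-chain symbols (29 kappa and 4 lambda), 2 the surrogate light-chain gene Igll1, and 2 Iglon5, a cell-adhesion gene that belongs here by its letters only. A probe set is the group of short probes that gives 1 value per array, and 13 of the 60 carried several such symbols. No probe set carried the symbol Ighg1, so IgG1 was not analysed here by name.

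Antibodies are made of heavy and light chains, each with a variable segment that binds antigen and a constant region. The heavy-chain constant region sets the class: Ighm gives IgM, Ighg3 an IgG and Igha IgA, the class secreted at mucosal surfaces such as the airways. Light chains are kappa (Igk) or lambda (Igl). B cells carry antibody on their surface, and plasma cells, which develop from them after they meet antigen, secrete it in bulk and hold very large amounts of its mRNA.

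Lung RNA from a mouse model of severe asthma was hybridised to Affymetrix whole-genome mouse arrays, with 1 array for every sample and 36 arrays in 10 groups. All mice were female and C57BL/6, age-matched with no age given. WT mice were wild type. KitWsh mice had the sash mutation of Kit, which leaves them without mast cells. The other three kinds were KitWsh mice labelled with an engraftment: MC (KitWsh_MC), MCifngR (KitWsh_MCifngR) or MCigeR (KitWsh_MCigeR). No source used here explains these codes. The genotype label of KitWsh_MCigeR mice also names FcεRIγ-/-, which could describe the recipients or the engrafted cells. OVA mice were injected intraperitoneally on days 1, 4 and 7 with 50 µg ovalbumin in 0.1 ml PBS (phosphate-buffered saline), 3 injections in all. From day 12, for 9 weeks, they were given 20 µg ovalbumin in 30 µl PBS by the nose once a week, while PBS mice had PBS alone at the same times. There were 4 arrays for each of the OVA groups and for WT PBS, and 3 for each of the other PBS groups. Whether arrays of a group stand for separate animals is not labelled, so the p-values speak only of the spread between these samples, which may be technical.

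Values are log2 intensities from GCRMA, a method whose background correction uses the sequence of each probe, and they ran from 2.19 to 15.9. A probe set was tested if it exceeded log2 5 in at least 3 arrays, and it was called where limma's Benjamini-Hochberg adjusted p over all 23091 tested probe sets was under 0.05. Differences are in log2 units ± their standard error, and group means are ± the SD between arrays. The tested members were 38 of 60, comprising 15 heavy-chain and 23 light-chain (19 kappa, 4 lambda) probe sets. Both 1426178_at (Igk) and 1427851_x_at (Ighv1-72 and Ighm) passed the filter through KitWsh OVA arrays alone, with 1 array above log2 5 elsewhere, so they had to be high in that group. Their values are given below as descriptions, with no test.

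Some arrays stood apart. KitWsh_MCigeR PBS array 2 had a median Pearson r of 0.528 with the other arrays across tested probe sets, against 0.869 to 0.963 for the other 35. Its beta-actin 3' minus 5' difference, which grows as RNA breaks down, was 8.43, against 1.17 to 6.23 in the others. In WT OVA array 4 Kit read 6.90, where it read 10.6 to 11.0 in the remaining WT OVA arrays, and the array had a mean over Y-linked genes of 7.28 although labelled female. In arrays of KitWsh mice, with or without an engraftment label, Kit read 4.52 to 7.52, a range that holds the value of WT OVA array 4. KitWsh_MCifngR OVA arrays 2 and 3, also labelled female, had Y-linked means of 7.71 and 7.30. These 4 arrays are called doubted below, and results that rest on them are given without them. The 6 lung epithelium markers (such as Sftpc and Scgb1a1) had group means of 12.8 to 13.8 everywhere, as a check of the tissue label.

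OVA challenge came with large rises of 4 probe sets annotated Ighm in WT, KitWsh, KitWsh_MC and KitWsh_MCigeR lungs, from group means of 6.08 to 8.21 in PBS mice to 13.20 to 14.65. The rises ran from 5.32 ± 0.74 to 8.49 ± 1.08, and no other member was called in more than 1 kind of mouse. In KitWsh_MCifngR mice the same 4 probe sets differed by 2.11 to 2.89, and none was called. The symbol is that of the platform annotation. These 4 probe sets read unlike the brightest Ighm probe set, 1427351_s_at (below), and which heavy-chain constant region they detect was not tested, so their rise cannot be read as one of IgM.

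For 1425247_a_at (Ighm), the 4 WT OVA arrays read 14.69, 15.05, 14.82 and 13.31 and the 4 WT PBS arrays 10.06, 6.29, 7.55 and 8.88. The KitWsh OVA arrays read 14.48, 14.62, 14.60 and 14.30 and the KitWsh PBS arrays 8.61, 8.88 and 7.13. OVA and PBS arrays did not overlap in either kind, and the KitWsh OVA arrays lay close together. The difference was 6.27 ± 0.81 in WT mice (77.2-fold, adjusted p = 0.0001035). It was 6.29 ± 0.87 in KitWsh mice (78.3-fold, adjusted p = 0.0004345). The difference between these 2 rises was 0.02 ± 1.19 (95% interval -2.40 to 2.45, adjusted p = 0.9998), so a difference of up to about that size could not be seen with these arrays. The WT rise and this difference include the doubted WT OVA array 4. Over 13 alternative settings, among them leaving that array out, the WT rise ran from 5.64 to 6.89 and stayed called.

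In KitWsh_MC mice the OVA arrays for this probe set read 14.22, 14.06, 14.02 and 14.27 and the PBS arrays 9.93, 6.19 and 7.01. In KitWsh_MCigeR mice the OVA arrays read 14.44, 14.63, 14.49 and 14.36 and the PBS arrays 10.20, 5.93 and 6.34. Again no OVA array reached down to a PBS array, and array 1 was the highest of its PBS group in WT, KitWsh_MC and KitWsh_MCigeR mice, for each of the 4 probe sets. The KitWsh_MC difference was 6.44 ± 0.87 (86.7-fold, adjusted p = 9.148e-05). The KitWsh_MCigeR difference was 6.99 ± 0.87 (127-fold, adjusted p = 0.0001171), and 6.21 ± 0.95 without KitWsh_MCigeR PBS array 2 (adjusted p = 0.003189). A fit on the KitWsh_MCigeR arrays alone, that array included, gave adjusted p = 0.5523 for each of the 4 probe sets. Why these calls were lost was not tested.

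In KitWsh_MCifngR mice the 2 groups lay closer together. Their OVA arrays read 12.35, 13.97, 11.22 and 14.35, the lowest OVA mean of the 5 kinds (12.97 ± 1.45, n = 4), and their PBS arrays read 10.58, 10.24 and 11.11, the highest PBS mean (10.64 ± 0.44, n = 3). The arrays did not overlap, and the difference of 2.33 ± 0.87 (5.03-fold) had an adjusted p of 0.6207. Without the 4 doubted arrays it was 2.71 ± 0.96 (adjusted p = 0.1717). The rise was 4.11 ± 1.23 smaller than in KitWsh_MC mice (95% interval of the difference -6.62 to -1.59), with an unadjusted p of 0.00231 and an adjusted p of 0.1962. Without the 4 doubted arrays the difference between the rises was -3.73 ± 1.25 (adjusted p = 0.1399). Actin 3' minus 5' means in KitWsh_MCifngR mice were 3.38 (OVA) and 3.90 (PBS). They were 1.29 and 1.37 in WT and 3.34 and 2.92 in KitWsh_MC mice. The part of RNA quality in the smaller rise was not tested.

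The other three rising Ighm probe sets behaved likewise. For 1425324_x_at the OVA arrays of WT mice read 15.06, 15.44, 15.04 and 12.64 and the PBS arrays 9.64, 6.27, 6.91 and 7.81. WT OVA array 4, one of the doubted arrays, was the lowest WT OVA array for all 4 probe sets and still lay above every WT PBS array. Over KitWsh, KitWsh_MC and KitWsh_MCigeR mice, OVA arrays of 1425324_x_at lay between 13.42 and 14.78 and PBS arrays between 2.99 and 9.57. The lowest of these was KitWsh_MCigeR PBS array 2, and without that array the KitWsh_MCigeR difference was 6.94 ± 1.07 in place of 8.49 ± 1.08. In KitWsh_MCifngR mice this probe set read 11.69, 13.55, 10.60 and 14.27 after OVA and 9.76, 9.17 and 9.97 after PBS.

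For 1427756_x_at the rises were 6.46 ± 0.82 in WT, 6.74 ± 0.89 in KitWsh, 6.69 ± 0.89 in KitWsh_MC and 6.65 ± 0.89 in KitWsh_MCigeR mice, and the KitWsh_MCifngR difference was 2.61 ± 0.89 (adjusted p = 0.5192). For 1427870_x_at they were 5.74 ± 0.68, 5.85 ± 0.74, 6.02 ± 0.74 and 5.32 ± 0.74 in the same order, with 2.11 ± 0.74 in KitWsh_MCifngR mice (adjusted p = 0.5452). In that last kind the OVA arrays of 1427870_x_at read 11.73, 13.18, 10.67 and 13.63 and overlapped the PBS arrays of 10.19, 9.60 and 10.78. Its rise was 3.91 ± 1.05 smaller in KitWsh_MCifngR than in KitWsh_MC mice (unadjusted p = 0.000813, adjusted p = 0.152). The 4 probe sets carry 1 symbol, 3 of them are of a type (_x_at) whose probes can match several transcripts, and no probe sequence was used here, so they are not 4 independent measurements and their agreement is not replication.

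**Figure D1:**
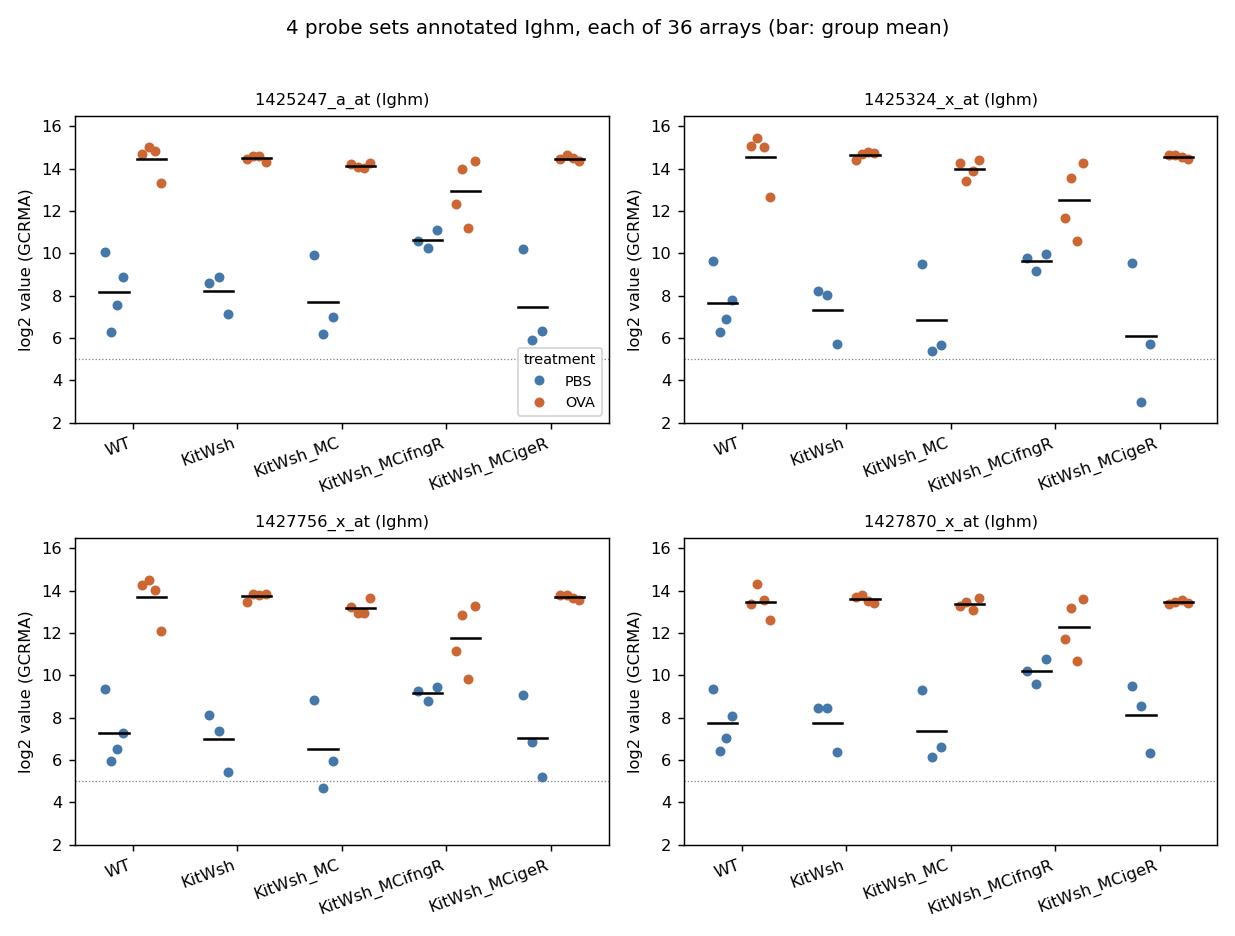
Log2 value of the 4 Ighm probe sets that rose with OVA, 1 point per array, in the 5 kinds of mice (PBS blue, OVA orange, bar at the group mean, dotted line at log2 5). OVA arrays lie well above PBS arrays in 4 kinds, and the groups come nearest in KitWsh_MCifngR mice.

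Not every probe set with the symbol Ighm moved. The brightest of them, 1427351_s_at, read 13.91, 14.27, 14.02 and 13.52 in WT OVA arrays and 13.88, 13.09, 14.27 and 14.37 in WT PBS arrays. Its KitWsh OVA arrays read 14.66, 14.92, 14.35 and 14.64 and its KitWsh PBS arrays 14.43, 13.60 and 14.28. OVA and PBS arrays overlapped in both kinds, and this probe set was called in none of the 14 comparisons. Its mean over the 36 arrays ranked 67 of all probe sets on the array, so IgM-annotated signal was high in PBS lungs as well.

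Similarly, 1427329_a_at and 1425385_a_at, also Ighm, were called in no comparison. The group means of 1427329_a_at were 13.27 (OVA) and 13.05 (PBS) in WT, 14.43 and 13.42 in KitWsh, 13.91 and 12.83 in KitWsh_MC and 12.85 and 13.93 in KitWsh_MCifngR mice. Its KitWsh_MCigeR PBS mean of 10.70 rested on array 2, which read 6.26. Those of 1425385_a_at lay between 11.26 and 13.43.

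Of the dim Ighm probe sets, 1427869_at was high in KitWsh_MC OVA lungs. Its KitWsh_MC OVA arrays read 5.27, 7.47, 8.93 and 8.84 and its KitWsh_MC PBS arrays 4.00, 3.13 and 3.61. The difference was 4.04 ± 0.61, or at least 6.16-fold because every PBS array lay under log2 5 (adjusted p = 0.0002675). Of the 12 alternative settings, 1 ended this call, a fit on these 2 groups alone (adjusted p = 0.05996). The KitWsh OVA arrays read 5.45, 4.04, 5.01 and 4.65, and KitWsh_MC OVA lungs were higher by 2.83 ± 0.56 (adjusted p = 0.002823), with array 1 inside the KitWsh range. This call too was lost in a fit on the compared groups alone (adjusted p = 0.09689). Against KitWsh_MC OVA lungs, those of KitWsh_MCifngR mice were at least 6.16-fold lower (adjusted p = 0.0007516) and those of KitWsh_MCigeR mice lower by 2.74 ± 0.56 (adjusted p = 0.009808). Both calls were lost as well with only the compared groups in the fit (adjusted p = 0.07148 and 0.1381). These were the only members called in those 2 comparisons, in which 3.18% and 1.05% of all tested probe sets were called lower. KitWsh_MC OVA arrays also had an actin 3' minus 5' mean of 3.34, against 1.74 in KitWsh OVA arrays, and its part in this result was not tested.

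Another dim Ighm probe set, 1452535_at, read 6.85, 9.62, 6.14 and 4.73 in WT OVA arrays and 3.65, 3.56, 4.60 and 3.41 in WT PBS arrays. The groups did not overlap, and the rise was 3.03 ± 0.69, at least 3.57-fold (adjusted p = 0.01895). It lost its call in 5 of 13 alternative settings, among them leaving out WT OVA array 1 or 2, with a highest adjusted p of 0.1031. It was also high in KitWsh OVA arrays (5.26, 7.18, 7.36 and 7.38) and low in KitWsh_MC OVA arrays (3.68, 3.38, 3.38 and 4.29).

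IgA signal was high in every kind of lung. Its OVA differences were 1.10 to 1.36 in WT mice and 0.11 to 0.46 in KitWsh, KitWsh_MC and KitWsh_MCifngR mice. The Igha probe set 1421653_a_at read 14.57, 14.95, 14.40 and 13.96 in WT OVA arrays and 13.18, 13.50, 13.18 and 13.61 in WT PBS arrays. Every WT OVA array lay above every WT PBS array, yet the difference of 1.10 ± 0.56 had an adjusted p of 0.3132. Without KitWsh_MCigeR PBS array 2, which read 9.23 for this probe set and widened the shared estimate of spread, its error was 0.17 and its adjusted p 0.0005196. The other Igha probe sets did the same: 1425763_x_at differed by 1.14 ± 0.52 (adjusted p = 0.2566, 0.0005196 without that array) and 1429381_x_at by 1.36 ± 0.73 (0.3523 and 0.0007393).

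Apart from KitWsh_MCigeR PBS array 2, WT PBS lungs were the lowest in Igha. KitWsh PBS arrays of 1421653_a_at read 14.41, 14.46 and 14.53, all above the WT PBS arrays, a difference of 1.10 ± 0.60 (adjusted p = 0.4472, 0.0007084 without KitWsh_MCigeR PBS array 2). The other 2 Igha probe sets were likewise higher in every KitWsh PBS array than in every WT PBS array, by 1.05 ± 0.57 and 1.24 ± 0.78, and were called only without that array (adjusted p = 0.001517 and 0.0021). No member was called by limma in KitWsh PBS against WT PBS lungs with all arrays, where 1.56% of all tested probe sets were. An unadjusted p under 0.05 was found for 1 member and for 13.9% of all tested. The share of all tested probe sets with every KitWsh PBS array above every WT PBS array was 16.8%. In KitWsh_MC and KitWsh_MCifngR mice, OVA and PBS arrays of 1421653_a_at all lay between 14.12 and 14.84. In KitWsh_MCigeR mice it was called (2.14 ± 0.60, adjusted p = 0.04942), but the value fell to 0.50 ± 0.20 without PBS array 2 (adjusted p = 0.6293), and 1425763_x_at likewise from 2.09 ± 0.57 (adjusted p = 0.04804) to 0.56 (adjusted p = 0.5888).

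The tested Ighg3 probe set, 1427503_at, varied widely within groups. It read 11.60, 11.95, 10.81 and 8.46 in WT OVA arrays and 6.94, 8.75, 9.98 and 8.87 in WT PBS arrays. In KitWsh_MCifngR mice it read 10.61, 4.41, 7.62 and 6.60 after OVA and 10.88, 9.03 and 13.36 after PBS, a difference of -3.78 that had an adjusted p of 0.3492. Groups overlapped in both kinds, and it was not called in any comparison. The heavy-chain variable-segment probe set 1455530_at (Ighv14-2) lay between group means of 8.02 and 9.85 and was not called either.

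**Figure D2:**
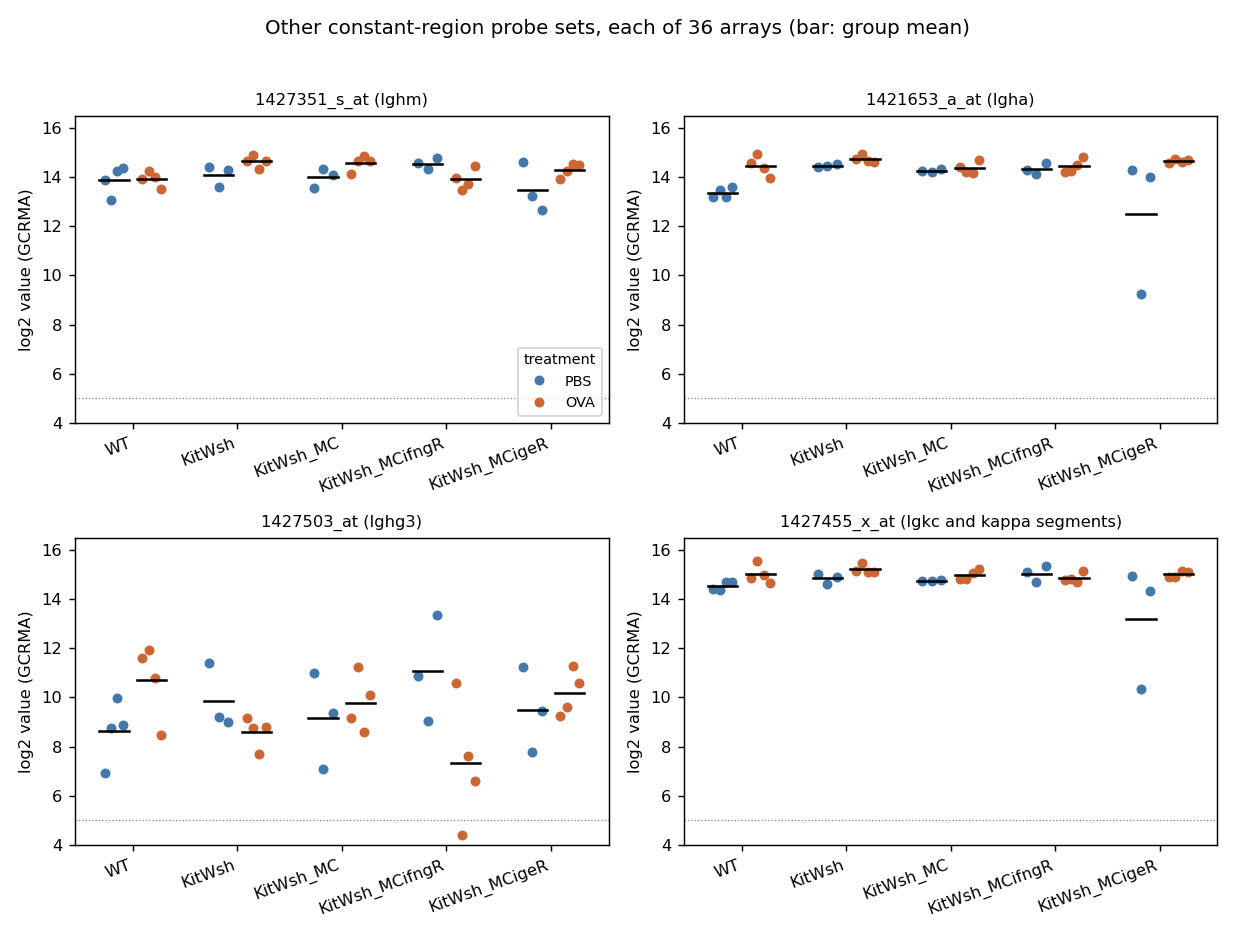
Log2 values by array for 1 probe set each of Ighm (1427351_s_at), Igha, Ighg3 and the kappa constant region with variable segments, drawn as PBS (blue) and OVA (orange) points with bars at group means. Igha lies lowest in WT PBS arrays apart from the single low KitWsh_MCigeR PBS array 2, and Ighg3 is spread over several log2 units within groups.

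Counted over all members, heavy-chain calls outnumbered light-chain calls in 4 kinds of mice taken alone, and no member was called lower after OVA. In WT mice 5 of 15 heavy-chain and 0 of 23 light-chain probe sets were called higher, where 0.801% of all tested probe sets were (1.39% lower). In KitWsh mice the counts were 4 and 3, against 0.0606% (0.104% lower), or 7 of the 14 probe sets called higher on the whole array (6 without 1426178_at, which passed the filter through this group). They were 5 and 0 in KitWsh_MC mice, against 3.36% (5% lower), and 6 and 1 in KitWsh_MCigeR mice, against 1.84% (0.741% lower). In KitWsh_MCifngR mice limma called 0 members, against 0.0563% (0.065% lower), and 6 of the 38 had an unadjusted p under 0.05, where 5.14% of all tested probe sets did. Of those 6, 4 were the Ighm probe sets described above. Members with every OVA array above every PBS array numbered 9 in WT (all heavy-chain, against 7.9% of all tested probe sets), 24 in KitWsh (10 heavy-chain and 14 light-chain, against 7.85%), 10 in KitWsh_MC (against 10%), 4 in KitWsh_MCifngR (against 7.78%) and 12 in KitWsh_MCigeR mice (against 6.66%). The 24 in KitWsh mice include 1426178_at.

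These counts depended on the doubted arrays. Without KitWsh_MCigeR PBS array 2 the heavy-chain and light-chain counts were 8 and 0 in WT, 6 and 9 in KitWsh, 5 and 0 in KitWsh_MC, 0 and 0 in KitWsh_MCifngR and 4 and 0 in KitWsh_MCigeR mice, the last being the 4 rising Ighm probe sets. These counts are of members called higher, and 1 light-chain member was called lower, in KitWsh_MC mice. The share of all tested probe sets called higher moved as well, to 3.69% in WT, 0.927% in KitWsh, 8.52% in KitWsh_MC, 0.277% in KitWsh_MCifngR and 0.0217% in KitWsh_MCigeR mice. Without all 4 doubted arrays the counts were 8 and 8 in WT, against 7.44%, and 6 and 11 in KitWsh mice, against 1.65%. Leaving out WT OVA array 4 gave 8 calls in WT mice in place of 5. Leaving out KitWsh OVA array 1 or KitWsh PBS array 2 gave 11 or 4 calls in KitWsh mice in place of 7, and leaving out KitWsh_MCigeR PBS array 1 or 3 gave 24 or 17 in place of 7.

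Averaged over the 5 kinds, 8 heavy-chain and 12 light-chain probe sets rose with OVA, where 7.65% of all tested probe sets rose and 8.87% fell. The median difference was 0.85 for heavy and 1.02 for light chains, beside 0.03 for all tested probe sets. Without KitWsh_MCigeR PBS array 2 these medians were 0.54 and 0.83. The counts called higher were then 9 and 17, where 10.2% of all tested probe sets were. Among the heavy-chain calls with all arrays, that of 1421653_a_at (Igha, 0.75 ± 0.26, adjusted p = 0.04976) was lost in 31 of 40 alternative settings. Its value went as low as 0.42. Of the 38 tested members, 16 had a positive difference in all 5 kinds and 13 in 4 kinds. By kind, heavy-chain and light-chain medians were 1.22 and 0.92 in WT, 1.02 and 1.71 in KitWsh and 0.57 and 0.62 in KitWsh_MC mice, while those of all tested probe sets lay between -0.06 and -0.05. In KitWsh_MCifngR mice they were 0.12 and -0.22 (all tested 0.01). In KitWsh_MCigeR mice they were 2.09 and 1.80 (all tested 0.28), and 0.77 and 0.81 without PBS array 2. Members varied more than other probe sets within groups, with a median residual SD of 0.987 against 0.450 for all tested.

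**Figure D3:**
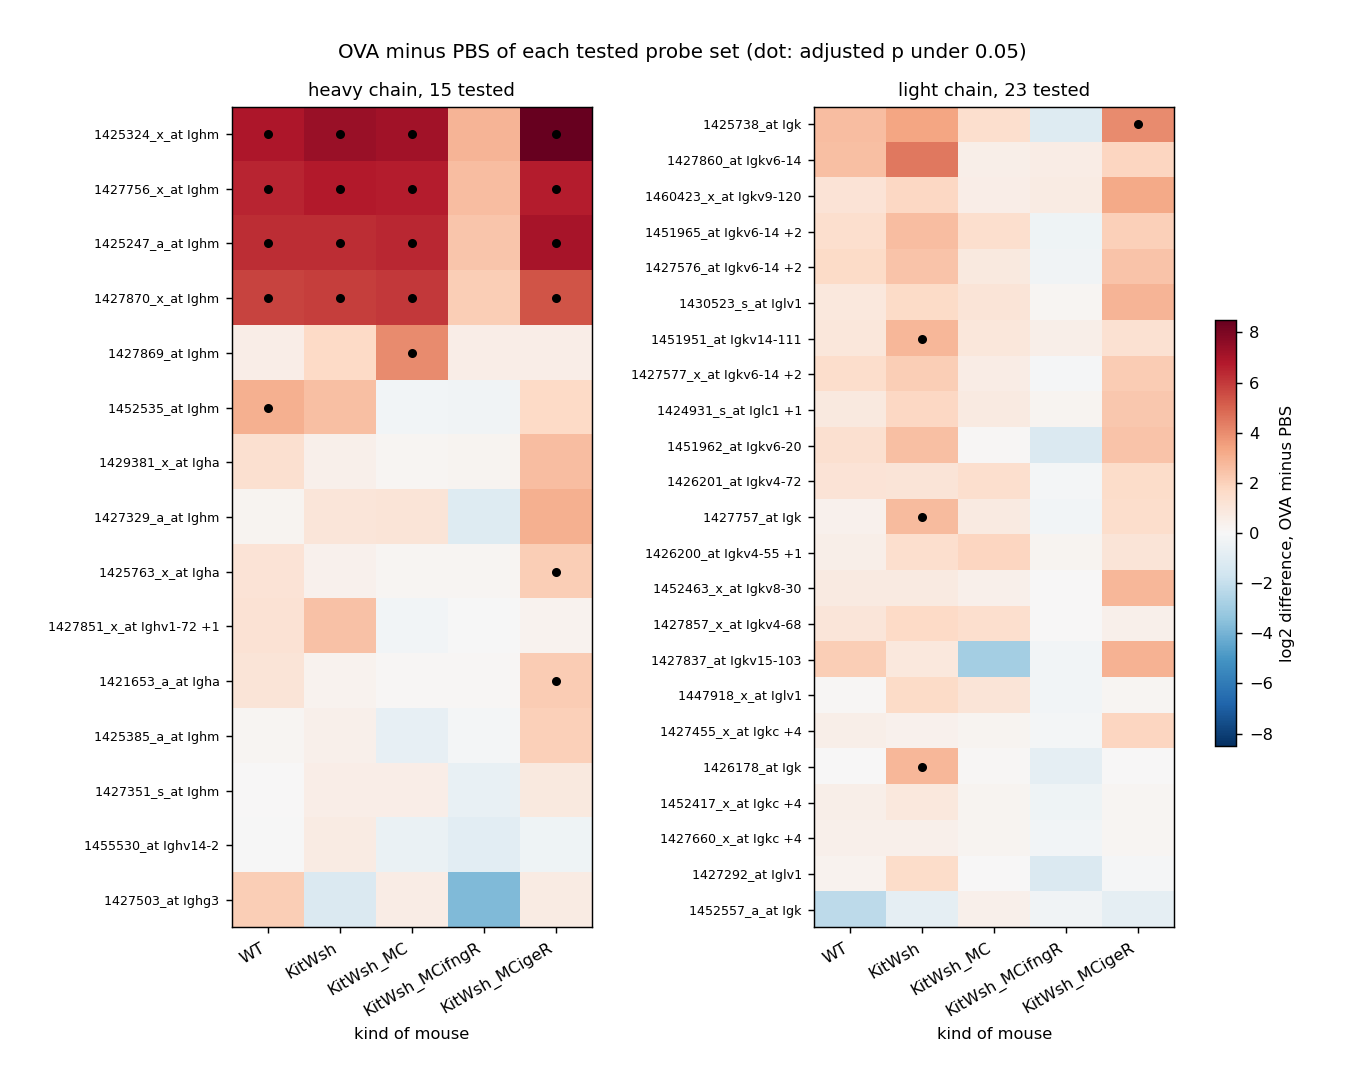
Heat map of the OVA minus PBS log2 difference for the 38 tested members (rows, heavy chains and light chains apart) in the 5 kinds of mice (columns), with a dot where the adjusted p was under 0.05. Only 4 Ighm rows are strongly raised and dotted in 4 columns, and the KitWsh_MCifngR column has no dot.

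The kappa constant region was near the top of the array's range in PBS and OVA lungs alike. The probe set 1427455_x_at, annotated with Igkc and 4 other kappa segments, ranked 16 of all probe sets by its mean over the 36 arrays (14.78). Its WT OVA arrays read 14.87, 15.54, 14.99 and 14.64 and its WT PBS arrays 14.40, 14.36, 14.71 and 14.68. They overlapped, and the differences of the 3 Igkc probe sets in WT mice were 0.43 to 0.48, none called. In KitWsh mice 1452417_x_at read 14.02, 14.24, 13.56 and 13.51 after OVA and 13.23, 12.66 and 13.00 after PBS, with no overlap, a difference of 0.87 ± 0.24 (adjusted p = 0.1081, and 0.03641 without KitWsh_MCigeR PBS array 2).

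Of the light-chain probe sets, 20 of 23 had their highest group mean in challenged KitWsh lungs. The exceptions were 1460423_x_at (Igkv9-120), highest in WT OVA lungs, 1427837_at (Igkv15-103) in KitWsh_MC PBS lungs and 1452557_a_at (Igk) in KitWsh_MC OVA lungs. The 20 include 1426178_at, which had to be high in that group to pass the filter. They also include 1427860_at (Igkv6-14) and 1452463_x_at (Igkv8-30), for which WT OVA arrays averaged higher than KitWsh OVA arrays once the doubted array 4 was left out. For 1427860_at (Igkv6-14) the KitWsh OVA arrays read 10.38, 12.89, 9.22 and 13.08 and the KitWsh PBS arrays 8.25, 5.40 and 7.05. The groups did not overlap, and the difference was 4.49 ± 1.04 (adjusted p = 0.05666, and 0.01877 without KitWsh_MCigeR PBS array 2). Its WT OVA arrays read 11.08, 12.31, 12.49 and 7.55, where the low one is the doubted array 4, and its WT PBS arrays 7.85, 8.74, 9.06 and 7.61. Averaged over the 5 kinds it rose by 2.00 ± 0.46 (adjusted p = 0.004193).

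For 1451951_at (Igkv14-111) the KitWsh OVA arrays read 9.32, 11.30, 10.81 and 11.30 and the KitWsh PBS arrays 9.07, 6.74 and 7.69. The lowest OVA array stood just above the highest PBS array, and the rise of 2.85 ± 0.62 was 7.21-fold (adjusted p = 0.04841). This call was lost in 7 of 12 alternative settings, with a highest adjusted p of 0.2601. Averaged over the kinds it rose by 1.31 ± 0.27 (adjusted p = 0.001884).

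Dim kappa-locus probe sets were detected in few groups. The Igk probe set 1426178_at read 4.88, 7.02, 6.07 and 6.93 in KitWsh OVA arrays and 3.87, 2.19 and 4.13 in KitWsh PBS arrays, while every WT array read 3.77. The KitWsh OVA mean was at least 2.34-fold above the PBS arrays, and no other group had an array above 5.24. As this group alone carried it through the filter, that difference is a description. The Igk probe set 1427757_at read 5.67, 7.29, 7.38 and 6.65 in KitWsh OVA arrays and 4.22, 3.97 and 3.97 in KitWsh PBS arrays. Its rise was 2.69 ± 0.47, at least 3.35-fold (adjusted p = 0.009205), and its KitWsh_MCigeR OVA arrays read 5.42, 6.14, 4.35 and 5.98. The call of 1427757_at was lost in 3 of 12 alternative settings, with a highest adjusted p of 0.07837. These left out KitWsh OVA array 2, KitWsh PBS array 2 or KitWsh PBS array 3.

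With all arrays, the brighter Igk probe set 1425738_at was the light-chain member with the largest rise averaged over the 5 kinds (2.05 ± 0.48, adjusted p = 0.004733). Over the alternative settings this average went as low as 1.75, where that of 1427860_at (Igkv6-14) went no lower than 1.85, so the ranking depends on the arrays used. It read 11.87, 13.26, 13.37 and 13.52 in KitWsh OVA arrays and 11.16, 6.94 and 10.88 in KitWsh PBS arrays. In KitWsh_MCigeR mice it read 12.16, 11.45, 11.82 and 12.12 after OVA and 11.81, 4.83 and 6.95 after PBS. The call in that kind (4.02 ± 1.09, adjusted p = 0.04804) ended without PBS array 2, where the difference was 2.50 ± 1.10 (adjusted p = 0.6662).

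Not all kappa probe sets were higher after OVA. The Igk probe set 1452557_a_at read 4.90, 3.88, 4.80 and 5.58 in WT OVA arrays and 6.65, 8.56, 6.19 and 6.74 in WT PBS arrays. Every OVA array was the lower, but the difference of -2.25 ± 0.80 was not called (adjusted p = 0.1225). In KitWsh_MC mice 1427837_at (Igkv15-103) read 6.51, 5.29, 6.13 and 8.85 after OVA and 9.60, 9.78 and 9.41 after PBS, again without overlap. Its difference was -2.90 ± 1.08 (adjusted p = 0.09166, and 0.04941 without KitWsh_MCigeR PBS array 2).

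Of the 4 lambda probe sets, 1 was called in the average over the 5 kinds and none in a single kind. For 1424931_s_at (Iglc1 and Iglv1) group means lay between 9.27 and 12.46, and the rise averaged over the 5 kinds was 1.18 ± 0.38 (adjusted p = 0.03056). For 1427292_at (Iglv1) the KitWsh OVA arrays read 5.96, 6.85, 5.85 and 7.49 and the KitWsh PBS arrays 5.08, 4.52 and 5.36. They did not overlap (1.55 ± 0.36, adjusted p = 0.05666, and 0.01688 without KitWsh_MCigeR PBS array 2). In KitWsh_MCifngR mice the same probe set differed the other way without being called, with OVA arrays of 5.52, 4.35, 3.98 and 4.68, PBS arrays of 5.89, 5.47 and 6.24 and a difference of -1.23 ± 0.36 (adjusted p = 0.3083).

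**Figure D4:**
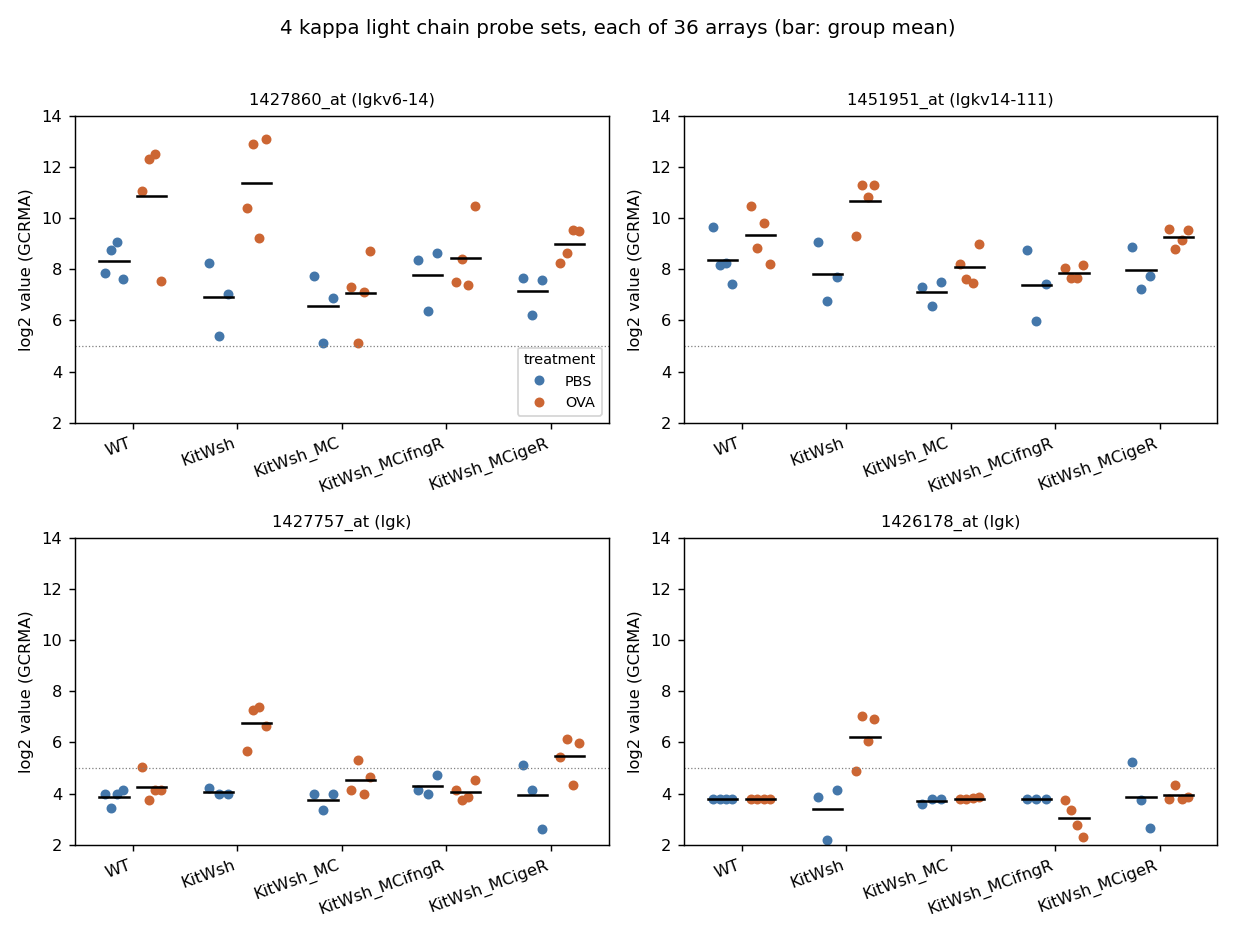
Log2 values by array for the kappa probe sets of Igkv6-14 and Igkv14-111 and for 2 Igk probe sets (PBS blue, OVA orange, bars at group means, dotted line at log2 5). The KitWsh OVA mean is the highest in each of the 4 panels, but for Igkv6-14 the WT OVA arrays other than the doubted array 4 average higher.

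Challenged KitWsh lungs also had the highest mean of the 10 groups for 12 of 15 heavy-chain probe sets. Over all tested probe sets this group was the highest for 6.02%. The 12 include 1427851_x_at, which had to be high in this group to pass the filter, and the 4 rising Ighm probe sets. For those 4, WT OVA arrays averaged higher than KitWsh OVA arrays once the doubted WT OVA array 4 was left out. Means of the B cell, T cell and lymph node markers were also highest in challenged KitWsh lungs, while that of the plasma cell markers was not. The 7 tested plasma cell markers averaged 9.02 in KitWsh OVA, 8.22 in KitWsh PBS and 9.09 in KitWsh_MC OVA arrays. The 14 tested B cell markers averaged 7.94 over KitWsh OVA arrays (arrays 7.40 to 8.37), 7.00 over KitWsh PBS (6.87 to 7.07), 6.98 over WT OVA (6.72 to 7.50) and 7.30 over KitWsh_MC OVA arrays (6.97 to 7.63). The 6 tested T cell markers averaged 7.13 (6.41 to 7.66) in KitWsh OVA and 6.03 (5.84 to 6.16) in KitWsh PBS arrays, and the 5 tested lymph node stroma and follicle markers 7.79 (6.85 to 8.31) and 6.72 (6.67 to 6.75). None of these tested markers was called in KitWsh mice, Pax5, Cd4 and Lta stayed under log2 5 in every array, and their part in the immunoglobulin values was not tested. In whole lung, more antibody-producing cells and more antibody mRNA per cell cannot be told apart.

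Light-chain values were lower in challenged KitWsh_MC than in challenged KitWsh lungs. In KitWsh_MC OVA lungs 22 of 23 light-chain probe sets (1426178_at among them) had a lower mean than in KitWsh OVA lungs, with a median difference of -1.90 beside -0.08 for all tested probe sets. Lower values were not particular to the MC label. The mean over tested light-chain members was 9.57 to 10.7 in KitWsh OVA arrays and 8.21 to 9.43 in KitWsh_MC OVA arrays. It was 7.58 to 8.77 in KitWsh_MCifngR OVA arrays (2 and 3 doubted) and 9.03 to 9.66 in KitWsh_MCigeR OVA arrays. In WT OVA arrays other than the doubted array 4 it was 9.42 to 9.64. Called lower were 9 light-chain and 2 heavy-chain probe sets, and 5.15% of all tested probe sets; called higher was 1 heavy-chain probe set (1427869_at, above), and 4.46% of all tested. Without the 2 members that passed the filter through KitWsh OVA arrays alone, 9 were called lower. Every KitWsh_MC array lay below every KitWsh array for 15 of the 38 members, as for 8.52% of all tested probe sets. The 15 include 1426178_at and 1427851_x_at, which passed the filter through KitWsh OVA arrays alone. The 4 strongly rising Ighm probe sets were not called in this comparison. KitWsh_MC OVA arrays had an actin 3' minus 5' mean of 3.34, against 1.74 in KitWsh OVA arrays. KitWsh_MC OVA array 2 had 6.23, a median r of 0.869 and the lowest light-chain mean of its group (8.21). Leaving that array out gave 8 called members in place of 12. The part of RNA quality in this comparison was not tested.

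The light-chain probe sets that follow were chosen after their values were seen. Of the called ones the largest difference was that of 1427860_at (Igkv6-14), with KitWsh_MC OVA arrays of 7.33, 5.10, 7.11 and 8.70, all below the KitWsh OVA arrays given above. It was -4.33 ± 0.97, or 20.1-fold lower (adjusted p = 0.006168). The KitWsh_MC OVA arrays of 1451951_at (Igkv14-111) read 8.23, 7.62, 7.47 and 9.01, lower by 2.60 ± 0.57 (adjusted p = 0.005883). Those of 1427292_at (Iglv1) read 4.65, 4.85, 4.19 and 4.85, at least 2.90-fold lower (adjusted p = 0.001217).

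The dim Igk probe set 1427757_at was lower by 2.23 ± 0.43 (adjusted p = 0.002439). The KitWsh_MC OVA arrays of 1426178_at (3.77, 3.77, 3.81 and 3.86) were all under log2 5, at least 2.34-fold below the KitWsh OVA mean. The remaining called ones belong to related kappa segments: 1451962_at (Igkv6-20, -3.56 ± 1.13), 1451965_at (Igkv6-14, Igkv6-23 and Igkv8-19, -3.16 ± 0.86), 1426200_at (Igkv4-55 and Igkv4-68, -2.09 ± 0.65) and 1427857_x_at (Igkv4-68, -1.69 ± 0.49). Their KitWsh and KitWsh_MC arrays did not overlap either. Among heavy chains, 1452535_at (Ighm) was at least 3.47-fold lower (adjusted p = 0.005899). For 1427851_x_at (Ighv1-72 and Ighm) the KitWsh_MC OVA arrays read 2.71, 2.19, 2.47 and 2.69 and the KitWsh OVA arrays 2.83, 7.01, 5.64 and 7.02, a mean at least 1.54-fold higher.

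A fit on these 8 arrays alone called 2 of the 12 members, 1452535_at (adjusted p = 0.03959) and 1451962_at (adjusted p = 0.04913). The call of 1451962_at was lost in 7 of 13 alternative settings, 6 of them leaving out a single array, with a highest adjusted p of 0.1522. Those of 1426200_at, 1427857_x_at and 1451965_at were lost in 8, 7 and 5 of 13, with highest adjusted p-values of 0.1394, 0.08981 and 0.0847, and 1452535_at kept its call in all 13. Without KitWsh_MCigeR PBS array 2 the fit on all groups called 19 members and 29.3% of all tested probe sets, 17 of the members lower, where 17.8% of all tested were. B cell markers had a median difference of -0.74 in the same comparison and T cell markers one of -0.83, with 0 of 14 and 1 of 6 called. Plasma cell markers had a median of -0.08, with 0 of 7 called. The plasma cell and secretion list described below had a median of 0.11, with 1 of 22 called higher and 1 lower. The part of these lists in the result was not tested.

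**Figure D5:**
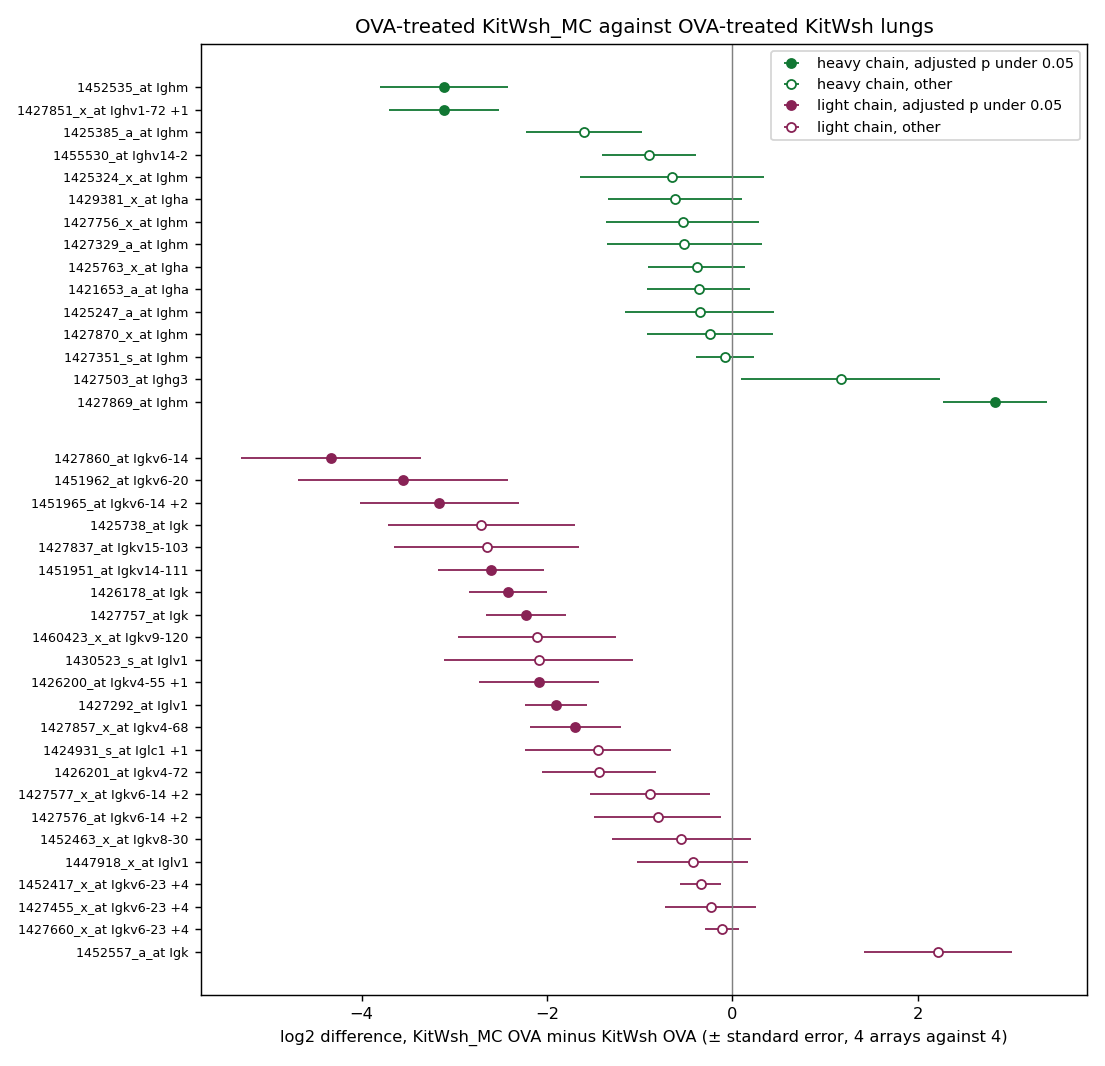
Log2 difference ± standard error between KitWsh_MC OVA and KitWsh OVA lungs for each tested member, heavy chains and then light chains, with filled points where the adjusted p was under 0.05. Most light-chain points lie below 0, and 9 light-chain and 2 heavy-chain points are filled there.

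The difference in the response itself, OVA against PBS in one kind minus the same in another, was called for 1 member, 1426178_at, between KitWsh_MC and KitWsh mice (where 0.256% of all tested probe sets were called lower). This is the Igk probe set that KitWsh OVA arrays alone carried through the filter, and the other three groups of the comparison lay under log2 5, so the call is no support for a difference. It was lost in 15 of 19 alternative settings, and without this member 0 were called by limma. An unadjusted p under 0.05 was found here for 9 of the 38 members and 14.4% of all tested probe sets. Between KitWsh and WT mice limma called 0 members and 0.013% of all tested probe sets, with 5 members and 8.21% of all tested at an unadjusted p under 0.05. Between KitWsh_MCifngR and KitWsh_MC mice it called 0 and 0.026%, with 8 members, all lower, and 11.4% of all tested at that level. Between KitWsh_MCigeR and KitWsh_MC mice it called 0 and 0.312%, with 8 members and 27.8% of all tested at that level, a smaller share of the members (21.1%) than of all tested.

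Genes that plasma cells use to fold and secrete antibody rose with OVA averaged over the 5 kinds. Of the 22 tested members of a plasma cell and secretion list 15 were called higher, where 7.65% of all tested probe sets were. Their median was 0.55 beside 0.03 for all tested probe sets. Fkbp11, a folding enzyme of secretory cells, rose by 1.01 ± 0.18 (adjusted p = 0.00063). Ell2, an elongation factor that favours the secreted form of the heavy-chain mRNA, rose by 0.53 ± 0.10 (adjusted p = 0.0006339), and the endoplasmic reticulum genes Creld2 by 0.64 ± 0.12 (adjusted p = 0.0009931) and Derl3 by 1.29 ± 0.30 (adjusted p = 0.00413). By kind, 1 member was called in WT, 0 in KitWsh, 5 in KitWsh_MC, 0 in KitWsh_MCifngR and 0 in KitWsh_MCigeR mice, with medians of 0.51, 0.68, 0.86, 0.03 and 0.62. The shares of all tested probe sets called higher were 0.801%, 0.0606%, 3.36%, 0.0563% and 1.84% in these kinds. Without the 4 doubted arrays 19 of the 22 were called in the average, 12 in WT, 9 in KitWsh and 11 in KitWsh_MC mice, and 0 in the other two kinds. In that setting the share of all tested probe sets called higher was 12%, 7.44%, 1.65% and 9.43% in the same order.

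Mzb1, a chaperone of IgM assembly, and the plasma cell markers Sdc1 and Prdm1 were picked from this list after their values were seen. Averaged over the kinds Mzb1 rose by 1.46 ± 0.36 (adjusted p = 0.006447), while Sdc1 differed by -0.10 (adjusted p = 0.3562) and Prdm1 by 0.17 (adjusted p = 0.4989). By kind none of the 3 was called. Mzb1 averaged 9.68 after OVA and 8.05 after PBS in WT (adjusted p = 0.2555), 10.65 and 8.74 in KitWsh (adjusted p = 0.3319), and 10.20 and 8.43 in KitWsh_MC lungs (adjusted p = 0.1821). In KitWsh_MCifngR lungs it averaged 9.04 after OVA and 9.58 after PBS. In these mice B cell markers too averaged lower after OVA (6.72, arrays 5.64 to 7.94) than after PBS (7.52, 7.35 to 7.86). No member of the plasma cell list had an unadjusted p under 0.05 in KitWsh_MCifngR mice. OVA arrays 2 and 3 of this kind are doubted, and the part of these marker values in the immunoglobulin result was not tested.

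Receptors that bind antibody rose as well in the average over the 5 kinds. Of 11 tested genes for antibody transport and Fc receptors, 7 were called higher on average over the kinds, with a median of 1.00. Of all tested probe sets 7.65% were called higher there. By kind, 1 of the 11 was called higher in KitWsh_MC mice, against 3.36% of all tested probe sets, and 0 in each of the other kinds. The activating IgG receptors Fcgr4, Fcgr1 and Fcgr3 rose by 1.61 ± 0.28 (adjusted p = 0.0004412), 1.23 ± 0.22 (adjusted p = 0.0006514) and 1.07 ± 0.21 (adjusted p = 0.001405), and the inhibitory IgG receptor Fcgr2b by 1.54 ± 0.34 (adjusted p = 0.003109). Fcer1g, a signalling chain that Fc receptors share, rose by 1.13, and Pigr, which carries IgA across epithelium, by 0.83. Fcer1a, the IgE-binding chain, was called too, but its group means were under log2 5 except in KitWsh_MC OVA (5.31) and KitWsh_MCifngR OVA lungs (6.03).

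Of 8 tested genes for class switching, recombination and B cell help, 2 were called higher in the average over the kinds. The share of all tested probe sets was 7.65%. The 2 were Ung, a uracil-DNA glycosylase used in class switching (0.52 ± 0.15, adjusted p = 0.01752), and the cytokine Il6. The mean of Il6 exceeded log2 5 in KitWsh_MC OVA lungs alone (5.79), the group through which it passed the filter. Its call in the average is therefore no support for a rise. Tgfb1 and Tnfsf13b differed by 0.84 (adjusted p = 0.1067) and 0.24 (adjusted p = 0.2702). In KitWsh_MC mice, where every PBS array of both was under log2 5, Ung was at least 1.46-fold higher after OVA (adjusted p = 0.004971), and the Il6 means differed by at least 1.73-fold, given without a test for the reason above. Rag1, Rag2, Dntt, Vpreb1 and the cytokine genes Il4, Il5, Il13, Il21 and Ifng did not pass the filter.

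The 22 members not tested comprised 8 heavy-chain, 10 light-chain, 2 Igll1 and 2 Iglon5 probe sets, and 18 of them had no array above log2 5. Among them were 3 of the 4 Ighg3 probe sets (1426198_at, 1426199_x_at and 1447998_at) and 2 Ighm probe sets (1426196_at and 1451949_at). Igll1, part of the receptor of precursor B cells in bone marrow, did not exceed 4.83 in any array. The highest single value among the 22 was 6.20, for the Igkv9-120 probe set 1452536_s_at.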

How the data were processed

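The authors' deposited values are log2 intensities. GCRMA, named by the submitters' processing notes with no version, corrected the background, normalised by quantiles and summarised probes, so low values come from its background model and cannot be ranked. They were used as deposited. Symbols are those of GEO's platform annotation, which can be old: 34958 probe sets had 1 symbol, 932 had several and 9211 had none. Control probe sets (64) were left out.

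Per probe set, 10 group means over the 36 arrays were fitted with limma (version 3.58.1, R 4.3.3), leaving 26 residual degrees of freedom. The 14 comparisons were two-sided, with Benjamini-Hochberg adjustment over the 23091 tested probe sets. "At least" folds set the higher mean against log2 5 when no array of the lower group exceeded it. Listed genes used their brightest single-symbol probe set. No 2 arrays were identical (highest r 0.993), nothing was paired, and precision is limited by the few arrays per group. On simulated data of 23091 probe sets the WT comparison recovered 32% of probe sets changed by 1 log2 unit and 78% of those changed by 2. The average over kinds recovered 88% and 100%.

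Named by rule were all constant-region and Igll1 probe sets, the highest and lowest tested member of each chain, up to 3 called members of each chain per OVA comparison, and 4 genes per list. Members, lists and alternatives were chosen with earlier results of these data known. Alternatives were no filter, quantile normalisation, leaving out doubted or single arrays, and fits on the compared groups alone.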

Additional observations from a re-analysis of the deposited data

Results flagged for a closer look

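Among 27 named members, 162 groups of 4 arrays were examined for 1 array far from the other three, which chance alone gives in about 5% of groups, and 10 such arrays were found. In KitWsh OVA lungs, array 3 was far above the others for 1427837_at (Igkv15-103) at 11.268, and array 2 for 1427455_x_at (Igkc with variable segments) at 15.477. Array 1 of the same group was far below the others for 1425738_at (Igk) at 11.867 and for 1452535_at (Ighm) at 5.2611. In WT OVA lungs, the doubted array 4 was far below for 1425324_x_at (Ighm) at 12.644, and array 2 far above for 1427660_x_at (Igkc) at 14.257. In WT PBS lungs, array 4 was far above for 1452417_x_at (Igkc) at 13.605. In KitWsh_MCigeR OVA lungs, array 3 was far below for 1425385_a_at (Ighm) at 12.489 and far above for 1427869_at (Ighm) at 5.8831. In KitWsh_MCifngR OVA lungs, the doubted array 2 was highest for 1427851_x_at at 2.4757, near the bottom of the scale.

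The response of 1426178_at (Igk) to OVA differed between KitWsh_MC and KitWsh mice by -2.7372 on the log2 scale, in the test of the difference itself. Only KitWsh OVA arrays carried this probe set through the filter, and the other three groups lay under log2 5, so this value rests on background readings.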

How the results depend on the processing

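Of the 59 calls of single members, 29 stood under every alternative tried, 30 were lost under at least 1, and 0 reversed over 1294 alternative values. The 4 rising Ighm probe sets stood throughout in WT, KitWsh and KitWsh_MC mice. Counts of called members moved over 1.5 times as follows. Without KitWsh_MCigeR PBS array 2 they were 8 for OVA against PBS in WT (5 with all arrays), 15 in KitWsh (7) and 4 in KitWsh_MCigeR mice (7). They were 1, 2 and 1 for the response of KitWsh minus WT (0), KitWsh_MC minus KitWsh (1) and KitWsh_MCifngR minus KitWsh_MC (0). In OVA lungs they were 19 for KitWsh_MC minus KitWsh (12), 2 for KitWsh_MCifngR minus KitWsh_MC (1) and 2 for KitWsh_MCigeR minus KitWsh_MC (1), and in PBS lungs 3 for KitWsh minus WT (0). Without the 4 doubted arrays they were 17 in WT, 17 in KitWsh, 8 in KitWsh_MC (5) and 4 in KitWsh_MCigeR mice, 21 and 4 for KitWsh_MC minus KitWsh and KitWsh_MCigeR minus KitWsh_MC in OVA lungs, and 3 for the PBS lungs. With only the compared groups in the fit they were 8 in WT and 0 in KitWsh_MCigeR mice (11 at an unadjusted p under 0.05), 2 and 0 for the responses of KitWsh minus WT and KitWsh_MC minus KitWsh, 2 and 0 for KitWsh_MC minus KitWsh and KitWsh_MCifngR minus KitWsh_MC in OVA lungs, and 3 for the PBS lungs. With no filter they were 4 in KitWsh_MCigeR mice and 0 for the response of KitWsh_MC minus KitWsh. With quantile normalisation they were 13, 0 and, for the response of KitWsh_MCigeR minus KitWsh_MC (0), 1. Leaving out each array of the compared groups in turn gave 4 to 8 calls in WT, 4 to 11 in KitWsh, 5 to 5 in KitWsh_MC, 0 to 1 in KitWsh_MCifngR (1 without OVA array 1) and 4 to 24 in KitWsh_MCigeR mice, and 17 to 30 in the average (20). It gave 0 to 1, 0 to 2, 0 to 2 and 0 to 14 for the 4 responses in the order of the report, the last rising to 14 without KitWsh_MCigeR PBS array 1. In OVA lungs it gave 8 to 14, 1 to 2 and 1 to 2, and in PBS lungs 0 to 0. Apart from the smaller number of arrays, the cause of these moves was not tested. No paired analysis was possible because the labels give the groups no shared replicate numbers. The planned comparison of Ighg1 with Ighm was not run, since 0 probe sets carried the symbol Ighg1.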
